A study of Mus musculus with 8 samples.

Results

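Vascular endothelial growth factor A (VEGF-A) and its receptors were followed through 10 probe sets of the array: 2 of Vegfa, 3 of Flt1, 1 of Kdr and 4 of Nrp1. They were chosen by probe set identifier out of 45101 on the array, and each is given on all 8 arrays. Forebrain was dissected from mouse embryos at E9.5 on a C57Bl/6 background. The 4 VEGF120 arrays came from embryos whose Vegfa gene carries a knocked-in cDNA of the VEGF120 isoform, and the labels state that these mice make no other isoform and lack VEGF164. They do not give the zygosity of the embryos. The 4 wild type arrays came from embryos with the unaltered gene. The labels do not say whether an array holds 1 embryo, a litter or a pool, so the p-values cover array-to-array spread that could be technical. Forebrain markers could not be checked, because no marker on the list used has a gene name in the files.

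VEGF-A is the secreted ligand that drives the growth of blood vessels, and alternative splicing gives it isoforms that differ in how strongly they bind heparan sulfate of the matrix; VEGF120 binds it poorly and diffuses further. Kdr (VEGFR2) is the main signalling receptor and is made by endothelial cells, and Flt1 (VEGFR1) binds the ligand tightly but signals weakly and is also made as a soluble decoy. Nrp1 (neuropilin 1) is a co-receptor that favours VEGF164 in vessels and also receives semaphorins on neurons. In the early embryonic brain the neural tube makes VEGF-A, and the vessels that surround and enter it carry the receptors.

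Each value is a MAS5 signal on a linear scale, with every array scaled by the authors to the same trimmed mean of 250. Differences between genotypes were taken on log2(signal + 16), a scale on which low signals show less than their full change, over the 27022 probe sets with a mean signal of at least 39.8. All 10 probe sets passed that filter, at brightness percentiles from 53.9 to 81.4. The median signal of an array ran from 62.3 to 68.5 in VEGF120 and from 56.1 to 59.6 in wild type. Centring each array on its median therefore lowers every difference given below by 0.12 (log2). The 3′ to 5′ ratio of β-actin, which tracks RNA integrity, was 0.30 to 0.69 (log2) over all arrays and was highest on VEGF120 replicate 4. Precision is set by 4 arrays a genotype.

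The knock-in alters Vegfa itself, so its probe sets come first. Vegfa was higher on average in VEGF120 forebrain by both of them, by a factor of 1.29 (1420909_at) and 1.32 (1451959_a_at), but the arrays of the genotypes overlapped and neither difference passed adjustment over all probe sets. The mean signal of 1420909_at was 235 ± 41.7 in VEGF120 and 179 ± 36.4 in wild type, and that of 1451959_a_at was 175 ± 31.4 in VEGF120 and 130 ± 27.9 in wild type (SD, n = 4 each). Kdr and 5 other receptor probe sets were lower on average in VEGF120 and 2 were higher, with log2 differences between −0.44 and 0.08, and none passed. Of all probe sets tested 57.3% were higher, and 37.4% after median centring, which turned the 2 higher receptor probe sets lower.

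Of the 10 probe sets, 0 had an adjusted p under 0.05 in limma, against 0% of the 27022 probe sets tested. At an unadjusted p under 0.05 there was 1 of 10, against 9.79% of the probe sets tested (2645), a share near the background. The unpaired test run on the same values also called 0 probe sets after adjustment, with 2253 at an unadjusted p under 0.05. The 4 arrays of one genotype lay wholly beyond the 4 of the other for 0 of the 10, against 5.01% of the probe sets tested. The median difference of the 10 was −0.03, beside 0.0416 over all probe sets tested. None of the 10 is in the authors' deposited table of 330 probe sets selected at a fold of at least 1.5. That table holds few of the 45101 probe sets on the array and rests on other signal summaries (PLIER). The absence of the 10 therefore says little about them.

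**Figure D1:**
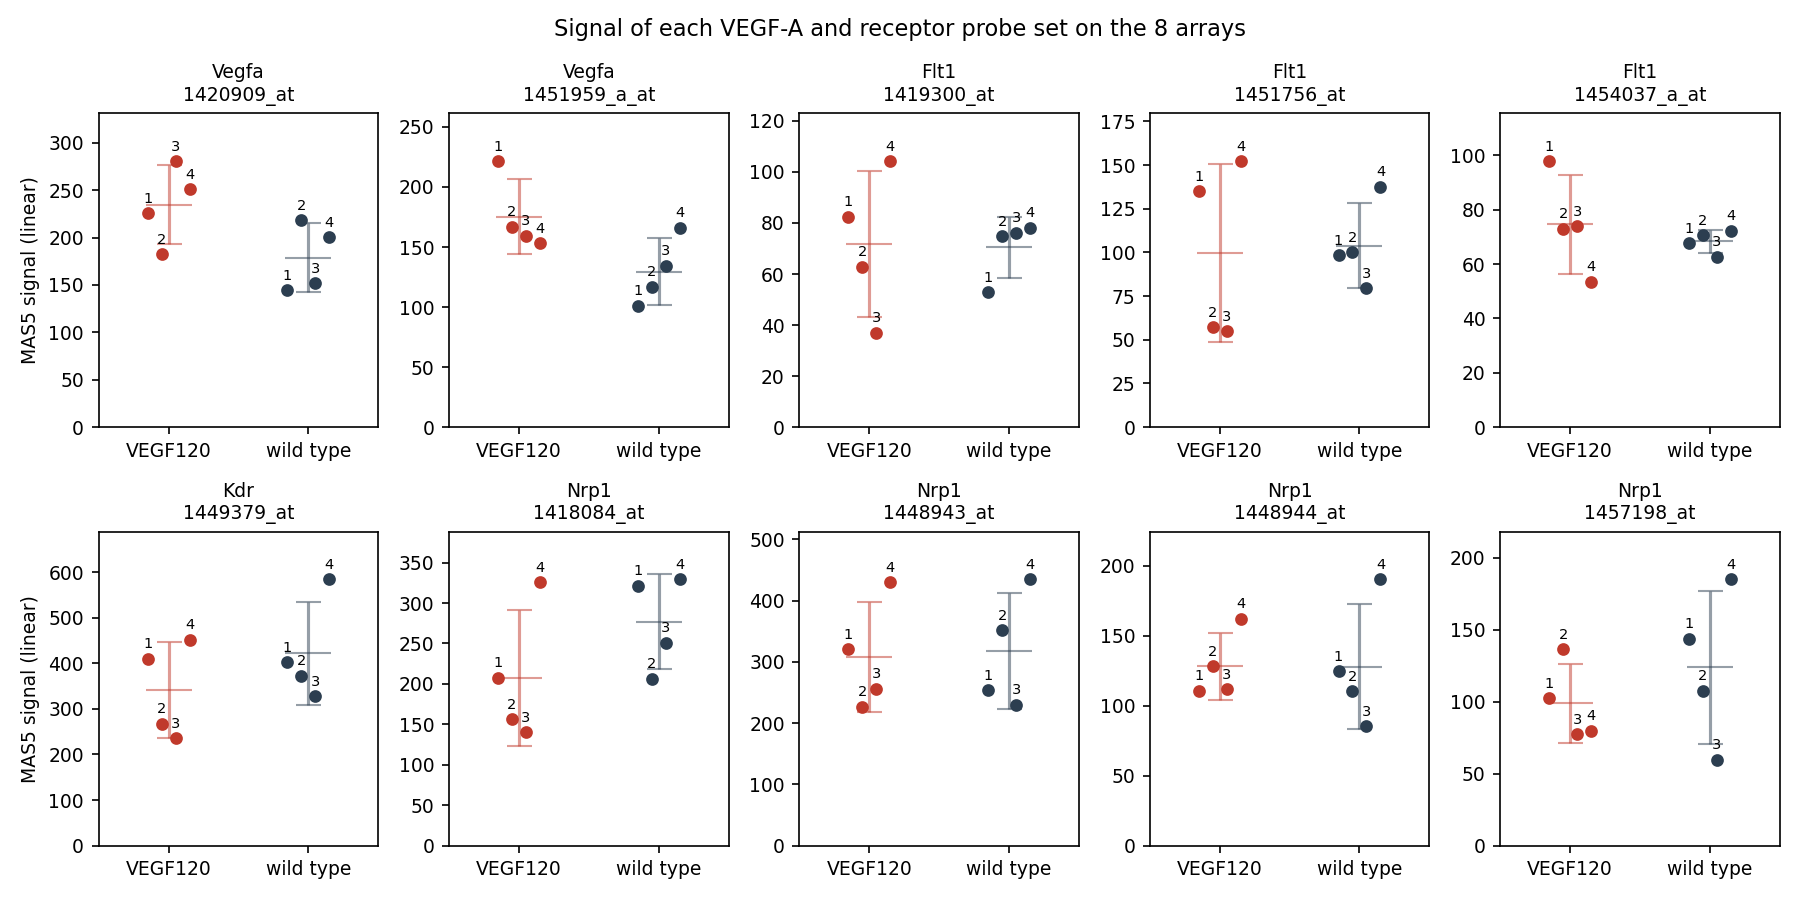
MAS5 signal (linear, y axis) of the 10 probe sets on the 4 VEGF120 arrays (left, red) and the 4 wild type arrays (right, dark), with replicate numbers beside the points and the mean ± SD as a bar. The genotypes overlap in every panel, and the spread within a genotype is widest relative to the mean for Flt1 1451756_at in VEGF120, from 55.0 to 152.4.

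Vegfa 1420909_at read 225.6, 182.4, 280.9 and 250.8 on VEGF120 replicates 1 to 4 and 144.3, 218.5, 151.9 and 200.4 on wild type replicates 1 to 4. Here 3 VEGF120 arrays lay above the highest wild type array, and VEGF120 replicate 2 lay below wild type replicates 2 and 4. The difference was 0.37 ± 0.17 (log2, SE; 95% confidence interval −0.0033 to 0.74), with a limma p of 0.0518 and an adjusted p of 0.51. The interval thus reaches from no change to a 1.67-fold increase.

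The second probe set, 1451959_a_at, read 221.7, 167.0, 159.5 and 153.2 on the VEGF120 arrays and 101.2, 116.9, 134.5 and 166.1 on the wild type arrays. The overlap came from wild type replicate 4 alone, which lay above VEGF120 replicates 3 and 4; the other 3 wild type arrays were below all VEGF120 arrays. The difference was 0.40 ± 0.18 (log2, SE; 95% confidence interval 0.02 to 0.78), with a limma p of 0.0423 and an adjusted p of 0.506. The two-sided exact permutation p was 0.0857 here and 0.114 for 1420909_at, where 4 against 4 arrays can give 0.0286 at the least.

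All 4 VEGF120 arrays lay above the wild type mean in both probe sets of Vegfa. The log2 ratio of the first to the second within an array was 0.39 ± 0.37 in VEGF120 and 0.42 ± 0.29 in wild type (SD, n = 4 each), a difference of −0.03 (exact permutation p = 0.914, also 0.914 after Benjamini-Hochberg adjustment over the 10 pairs of probe sets compared). Which part of the transcript each probe set reads is not given in the sources used here. A probe set outside the altered part cannot check the genotype, so neither the isoform nor the label was read from these signals. Averaged over its probe sets, Vegfa was at 7.90, 7.57, 7.83 and 7.73 in VEGF120 and at 7.10, 7.46, 7.31 and 7.63 in wild type (log2), a difference of 0.38. Only wild type replicate 4 and VEGF120 replicate 2 crossed in that mean.

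Because the arrays differed in median signal, the size of the Vegfa difference moved with the scaling. It was 0.31 for both probe sets after quantile normalization, and 0.25 for 1420909_at and 0.28 for 1451959_a_at with arrays centred on their medians. The direction held in all 19 alternatives for each probe set, and the adjusted p stayed between 0.408 and 0.831. Alternatives that changed only the filter, intensity trend, replicate block or test left the difference as it was, so they could not turn it. The others reused the same arrays.

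**Figure D2:**
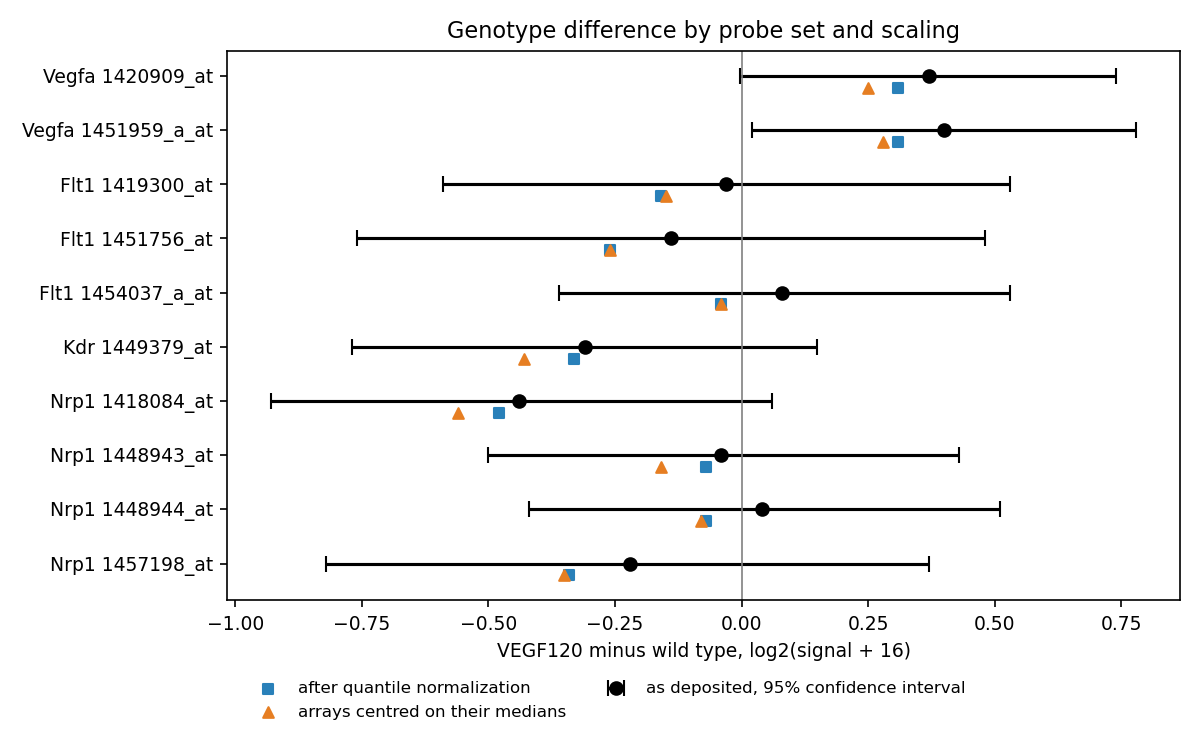
Difference between genotypes, VEGF120 minus wild type in log2(signal + 16) (x axis), for each probe set (rows): black points with 95% confidence intervals as deposited, blue squares after quantile normalization and orange triangles after median centring. Both Vegfa probe sets stay above 0 under each scaling, while Flt1 1454037_a_at and Nrp1 1448944_at cross 0.

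Kdr is the endothelial receptor through which VEGF-A chiefly signals. Its probe set 1449379_at read 410.2, 267.6, 235.9 and 452.0 on the VEGF120 arrays and 401.9, 372.9, 327.4 and 583.8 on the wild type arrays. VEGF120 replicates 2 and 3 lay below every wild type array, and replicates 1 and 4 lay among them. The mean was 341 ± 106 in VEGF120 and 421 ± 113 in wild type (signal, SD, n = 4 each). The log2 difference was −0.31 ± 0.21 (SE; 95% confidence interval −0.77 to 0.15), with a limma p of 0.173 and an adjusted p of 0.631. With single arrays left out it lay between −0.45, when VEGF120 replicate 4 was dropped, and −0.15, when wild type replicate 4 was dropped, and dropping VEGF120 replicate 3 gave −0.16. In whole forebrain RNA, fewer endothelial cells and less receptor RNA per cell cannot be told apart.

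Flt1, the tight-binding receptor that also acts as a decoy, was read by 3 probe sets. The one with the highest signal, 1451756_at, read 135.0, 57.3, 55.0 and 152.4 in VEGF120 and 98.3, 100.3, 79.6 and 137.6 in wild type. VEGF120 replicates 2 and 3 were again below all wild type arrays, and replicates 1 and 4 were near or above the highest of them. Its difference was −0.14 ± 0.29 (log2, SE; adjusted p = 0.884 in limma), and its spread within genotypes, an SD of 0.51, was above that of 90.2% of the probe sets tested.

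The probe set 1419300_at of Flt1 read 82.4, 62.9, 37.1 and 104.3 in VEGF120 and 52.8, 74.7, 76.2 and 78.1 in wild type. VEGF120 arrays lay at both ends of the range. Its difference was −0.03 ± 0.26 (log2, SE; adjusted p = 0.976 in limma), and it ranged from −0.20 without VEGF120 replicate 4 to 0.19 without VEGF120 replicate 3. The third, 1454037_a_at, read 98.0, 73.0, 73.8 and 53.5 in VEGF120 and 67.7, 70.7, 62.7 and 72.3 in wild type. The wild type arrays were close together here, within 10 signal units, and the VEGF120 arrays lay on either side of them. Its difference was 0.08 ± 0.21 (log2, SE; adjusted p = 0.91 in limma), and it was −0.04 after quantile normalization or median centring.

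Nrp1, the co-receptor that favours VEGF164, had the lowest difference of the 10, in 1 of its 4 probe sets. That probe set, 1418084_at, read 207.8, 156.1, 140.6 and 326.0 in VEGF120 and 321.5, 206.3, 250.9 and 329.2 in wild type. VEGF120 replicates 2 and 3 lay below all wild type arrays, replicate 1 just above the lowest, and replicate 4 close to the highest. The difference was −0.44 ± 0.23 (log2, SE; 95% confidence interval −0.93 to 0.06), a factor of 0.739, with a limma p of 0.0785 and an adjusted p of 0.534. It was −0.66 without VEGF120 replicate 4 and −0.29 without VEGF120 replicate 3, the ends of its range with 1 array left out, and its lowest adjusted p over 19 alternatives was 0.299.

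The Nrp1 probe set with the highest signal, 1448943_at, read 321.0, 226.6, 256.1 and 429.6 in VEGF120 and 253.3, 352.0, 230.3 and 434.4 in wild type. These ranges almost coincide, and the difference was −0.04 ± 0.22 (log2, SE; 95% confidence interval −0.50 to 0.43). Probe set 1448944_at read 110.8, 128.2, 112.0 and 162.3 in VEGF120 and 124.8, 110.6, 85.4 and 190.3 in wild type, a log2 difference of 0.04 ± 0.22 (SE) that was −0.07 after quantile normalization and −0.08 after median centring. The VEGF120 arrays lay inside the wild type range.

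The last Nrp1 probe set, 1457198_at, read 102.3, 136.4, 77.3 and 79.9 in VEGF120 and 143.7, 107.6, 59.7 and 185.0 in wild type. Its wild type arrays spread over a wider range than its VEGF120 arrays, and its difference was −0.22 ± 0.28 (log2, SE; adjusted p = 0.791 in limma). Without wild type replicate 4 it was −0.02, and without wild type replicate 3 it was −0.49.

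The probe sets of Nrp1 thus gave differences from −0.44 to 0.04. Whether they differed from each other was asked through the log2 ratio of 2 probe sets within an array, which is free of array scaling apart from the added 16. Of the 10 pairs of probe sets within Vegfa, Flt1 and Nrp1, the smallest exact permutation p was 0.171, for Nrp1 1418084_at over 1448944_at, at 0.58 ± 0.35 in VEGF120 and 1.05 ± 0.32 in wild type (SD, n = 4 each). That is 0.825 after Benjamini-Hochberg adjustment over the 10 pairs. The smallest exact permutation p that 4 against 4 arrays can give is 0.0286, so a single pair could not pass that adjustment. Before adjustment no pair was under 0.05 either. Unequal change of probe sets of the same gene was thus neither shown nor excluded.

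Several receptor probe sets shared a pattern across arrays. VEGF120 replicate 4 and wild type replicate 4 were the highest arrays of their genotypes for Kdr, for Flt1 1451756_at and 1419300_at and for 3 of the 4 Nrp1 probe sets, while VEGF120 replicate 3 was the lowest VEGF120 array for Kdr, both of these Flt1 probe sets and Nrp1 1418084_at. Over all 8 arrays Kdr correlated with Flt1 1451756_at at a Pearson r of 0.92 (exact permutation p = 0.000744, 0.00893 after Benjamini-Hochberg adjustment over 12 correlations) and a Spearman rho of 0.95 (exact permutation p = 0.00114, adjusted 0.0137). Without the 2 arrays farthest from the Kdr median, VEGF120 replicate 3 and wild type replicate 4, r was 0.96 (n = 6). Deviations from the genotype means gave 0.95. Leaving out single arrays gave 0.88 to 0.96, and without VEGF120 replicate 3 the adjusted p was 0.0655.

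Kdr also correlated with Nrp1 1418084_at, at an r of 0.86 (exact permutation p = 0.00655, adjusted 0.0393) and a rho of 0.88 (exact permutation p = 0.00724, adjusted 0.0435). This relation depended on few arrays: r was 0.75 without the farthest 2 (n = 6), and with 1 array left out the adjusted p was under 0.05 in 2 of 8 cases, without VEGF120 replicate 1 and without wild type replicate 3, and ran from 0.0524 to 0.149 without any 1 of the other 6 arrays. For the other Nrp1 probe sets r was 0.80 (1448943_at, adjusted exact permutation p = 0.0698, or 0.0483 after median centring), 0.64 (1448944_at) and 0.47 (1457198_at), and for Flt1 1419300_at it was 0.67 (adjusted exact permutation p = 0.203). For these Nrp1 probe sets r was lower without both arrays numbered 4, at 0.55 (1448943_at), −0.05 (1448944_at) and 0.29 (1457198_at), and without wild type replicate 4 alone it was 0.69, 0.35 and 0.10 in the same order. Flt1 1419300_at stood at 0.39 without VEGF120 replicate 3. Flt1 1454037_a_at did not follow Kdr, at −0.08, nor did it follow the other Flt1 probe sets, at −0.22 and −0.05, whereas those 2 correlated with each other at 0.78. The within-genotype groups hold 4 arrays each, too few for a correlation of their own.

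No relation of Vegfa to Kdr was detected over the 8 arrays. Its r with Kdr was −0.12 for 1420909_at and 0.02 for 1451959_a_at (exact permutation p = 0.772 and 0.965, adjusted 0.98 each). For 1420909_at r was 0.44 without the farthest 2 arrays (n = 6) and −0.26 to 0.37 with 1 array left out. Without both arrays numbered 4 it was −0.42. For 1451959_a_at r was −0.04, −0.13 to 0.13 and −0.20 in the same order. As deviations from the genotype means r was 0.20 for 1420909_at and 0.45 for 1451959_a_at, so the ligand's relation to Kdr within genotypes was not settled by these arrays. The ligand was highest on VEGF120 replicate 3 by 1420909_at, the array on which Kdr was lowest. Array measures stood beside the Kdr pattern as follows: r of Kdr was −0.01 with the median signal of the array, 0.14 with the 3′ to 5′ ratio of β-actin and −0.02 with that of Gapdh (exact permutation p = 0.98, 0.703 and 0.969). Without the farthest 2 arrays (n = 6) these were 0.41, 0.69 and 0.41, and as deviations from the genotype means they were 0.80, 0.40 and 0.25. VEGF120 replicate 4 was highest of the VEGF120 arrays both for Kdr and for the β-actin ratio, wild type replicate 4 was highest of its genotype for Kdr and lowest for that ratio, and the part of RNA quality in the receptor pattern was not tested. For the scaling, after median centring Kdr and Flt1 1451756_at correlated at 0.91 (adjusted exact permutation p = 0.00565), and after quantile normalization at 0.95 (adjusted 0.00149). These relations were looked for after the values had been seen.

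**Figure D3:**
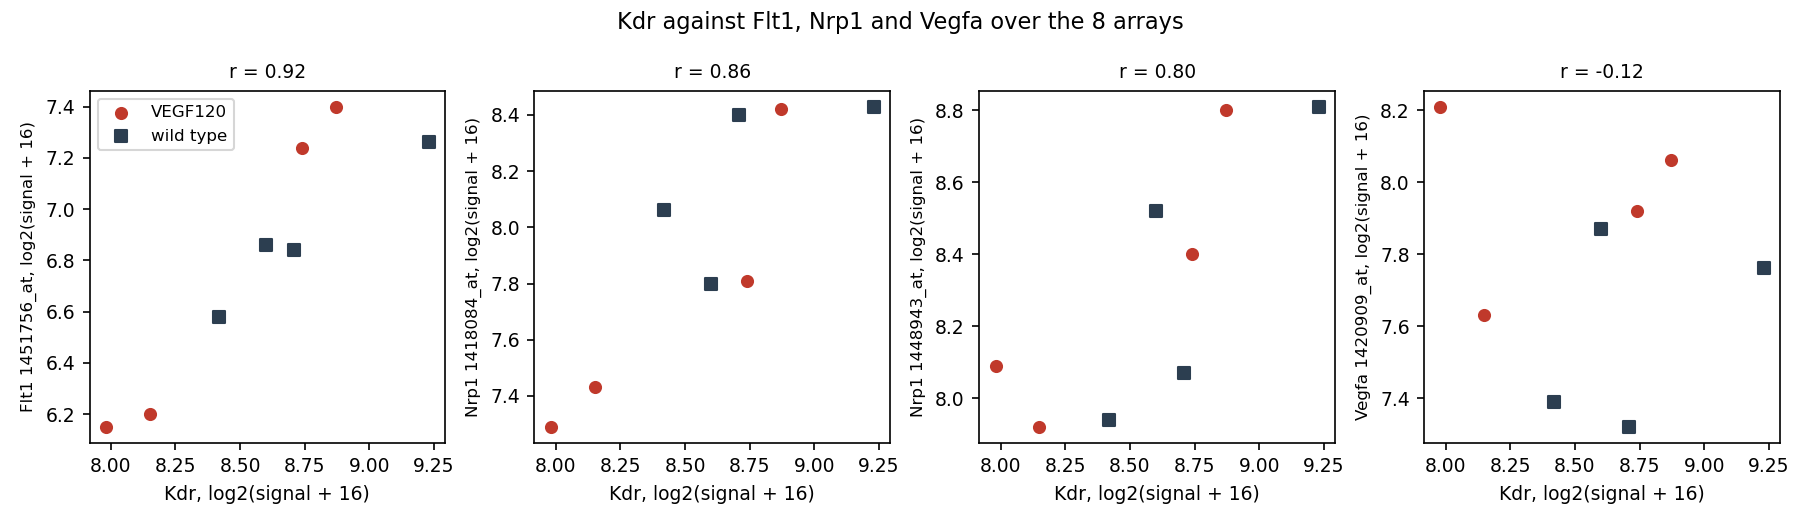
Kdr (x axis) against Flt1 1451756_at, Nrp1 1418084_at, Nrp1 1448943_at and Vegfa 1420909_at (y axes), all in log2(signal + 16), on 4 VEGF120 arrays (red circles) and 4 wild type arrays (dark squares). The receptor panels are those of highest r with Kdr (0.92, 0.86 and 0.80), and Vegfa has an r of −0.12. The receptor probe sets not shown have r from −0.08 to 0.67.

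**Figure D4:**
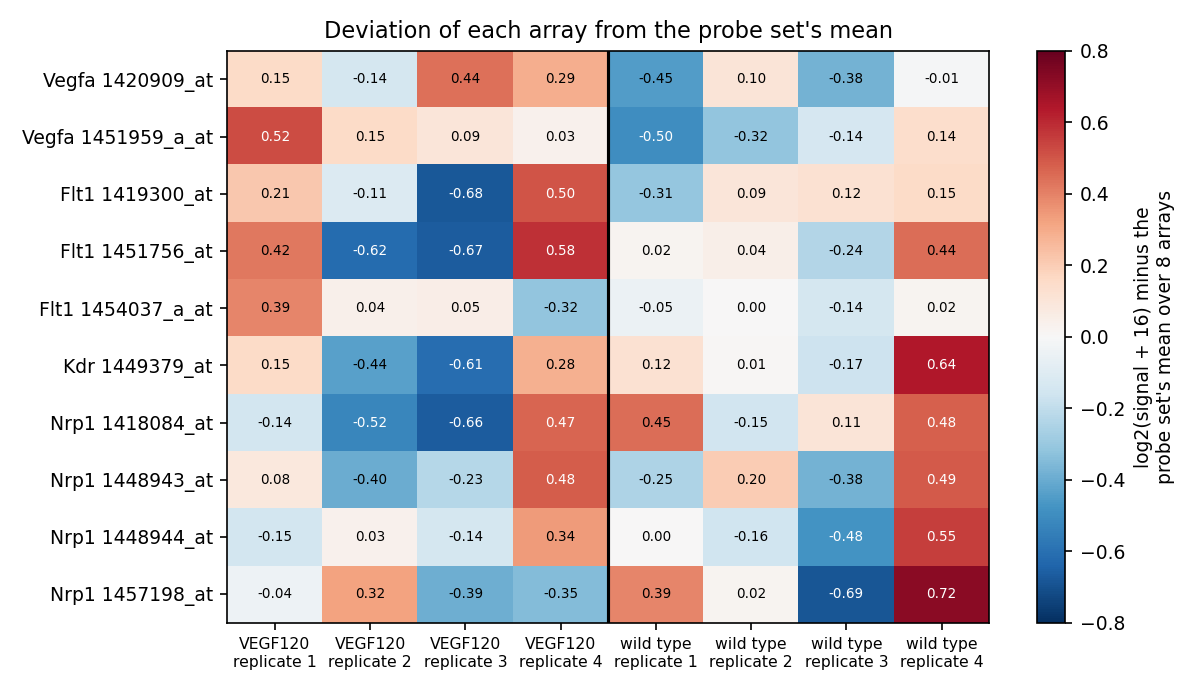
Deviation of each array (columns, VEGF120 left and wild type right of the black line) from the probe set's mean over 8 arrays, in log2(signal + 16), for each probe set (rows), red above and blue below that mean. The VEGF120 arrays are mostly red in the Vegfa rows, and the columns of both arrays numbered 4 are red in most receptor rows.

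The windows before the transcription starts of Kdr, Flt1 and Nrp1 are shown because some probe sets of these receptors ran together. That of Vegfa is shown because the knock-in lies in this gene. Each is the 250 bases 5′ of the start from RefSeq on build GRCm38.p6, on the strand of the gene; for Vegfa the farther upstream of 2 listed starts was taken. Capitals mark matches on either strand to GGGCGG (bound by Sp1), TATAAA (bound by the general initiation machinery), TGACGTCA (the cyclic AMP response element), CCGGAA (a core bound by ETS factors) and ACGTG (a core of hypoxia response elements), and matches to different motifs do not overlap. Positions are those of the first base of a match before the start. Kdr lies at chr5:75978456-75978705 (minus strand), Flt1 at chr5:147726012-147726261 (minus strand), Nrp1 at chr8:128358823-128359072 (plus strand) and Vegfa at chr17:46032378-46032627 (minus strand).
Kdr: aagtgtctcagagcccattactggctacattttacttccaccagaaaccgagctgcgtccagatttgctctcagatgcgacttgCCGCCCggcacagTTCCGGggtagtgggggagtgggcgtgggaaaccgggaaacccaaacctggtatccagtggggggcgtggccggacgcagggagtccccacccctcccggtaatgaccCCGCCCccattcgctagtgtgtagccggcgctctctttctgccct
Flt1: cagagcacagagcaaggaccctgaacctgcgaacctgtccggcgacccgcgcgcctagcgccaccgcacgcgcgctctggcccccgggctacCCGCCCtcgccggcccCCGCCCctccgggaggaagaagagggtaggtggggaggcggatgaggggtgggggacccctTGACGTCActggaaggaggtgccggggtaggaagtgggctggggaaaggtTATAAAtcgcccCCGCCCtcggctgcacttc
Nrp1: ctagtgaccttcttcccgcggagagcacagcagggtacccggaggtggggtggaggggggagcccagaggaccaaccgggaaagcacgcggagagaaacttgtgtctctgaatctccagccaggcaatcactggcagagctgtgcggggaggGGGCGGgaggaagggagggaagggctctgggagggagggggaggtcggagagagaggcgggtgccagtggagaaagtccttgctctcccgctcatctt
Vegfa: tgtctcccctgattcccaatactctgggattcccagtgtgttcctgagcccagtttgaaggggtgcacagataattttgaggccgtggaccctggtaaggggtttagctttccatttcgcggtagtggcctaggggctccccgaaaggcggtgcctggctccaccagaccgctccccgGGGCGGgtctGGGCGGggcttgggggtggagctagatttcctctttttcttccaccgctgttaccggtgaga

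GGGCGG was found in all 4 windows, 2 times in Kdr, 3 times in Flt1, 1 time in Nrp1 and 2 times in Vegfa, and 32.7% of 32851 windows of the same length hold it. TATAAA was found in Flt1 alone of the 4, at −31 from the start (12.4% of all windows), as was TGACGTCA at −81 (1.55%). CCGGAA was found 1 time, in Kdr at −153 (3952 of the 32851), and ACGTG in none of the 4 (16.6%). Among these motifs Kdr and Flt1 shared only GGGCGG. The probe set closest to Kdr over the arrays was Flt1 1451756_at, at an r of 0.92. The other Flt1 probe sets stood at 0.67 (1419300_at) and −0.08 (1454037_a_at). A match is a description of the letters and shows no binding.

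Ligand and receptor were set side by side as a log2 ratio within an array, in which array scaling largely cancels. The Vegfa probe set of highest signal was taken over that of each receptor. Levels of different probe sets are not comparable, so only the difference of a ratio between genotypes is read. For Vegfa over Kdr the ratio was −0.82, −0.52, 0.24 and −0.81 on the VEGF120 arrays and −1.38, −0.73, −1.03 and −1.47 on the wild type arrays. The genotypes overlapped through wild type replicate 2, which lay above VEGF120 replicates 1 and 4. The mean was −0.48 ± 0.50 in VEGF120 and −1.15 ± 0.34 in wild type (SD, n = 4 each), a difference of 0.68 (two-sided exact permutation p = 0.0857, 0.171 after Benjamini-Hochberg adjustment over 3 ratios). It was 0.44 without VEGF120 replicate 3, the lowest value with 1 array left out, when the difference over Flt1 below was 0.22.

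The ratio of Vegfa over Nrp1 was −0.35 ± 0.36 in VEGF120 and −0.75 ± 0.22 in wild type, a difference of 0.41 (exact permutation p = 0.114, adjusted 0.171), or 0.25 without VEGF120 replicate 3. Vegfa over Flt1 was at 1.21 ± 0.67 in VEGF120 and 0.70 ± 0.26 in wild type (SD, n = 4 each), a difference of 0.51 (exact permutation p = 0.229, adjusted 0.229). All 3 differences were above 0, and none had an exact permutation p under 0.05 before or after adjustment. The smallest p that 4 against 4 arrays can give is 0.0286, so a single ratio could not pass adjustment over 3. The 3 differences share the Vegfa values, so they are not independent of each other.

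**Figure D5:**
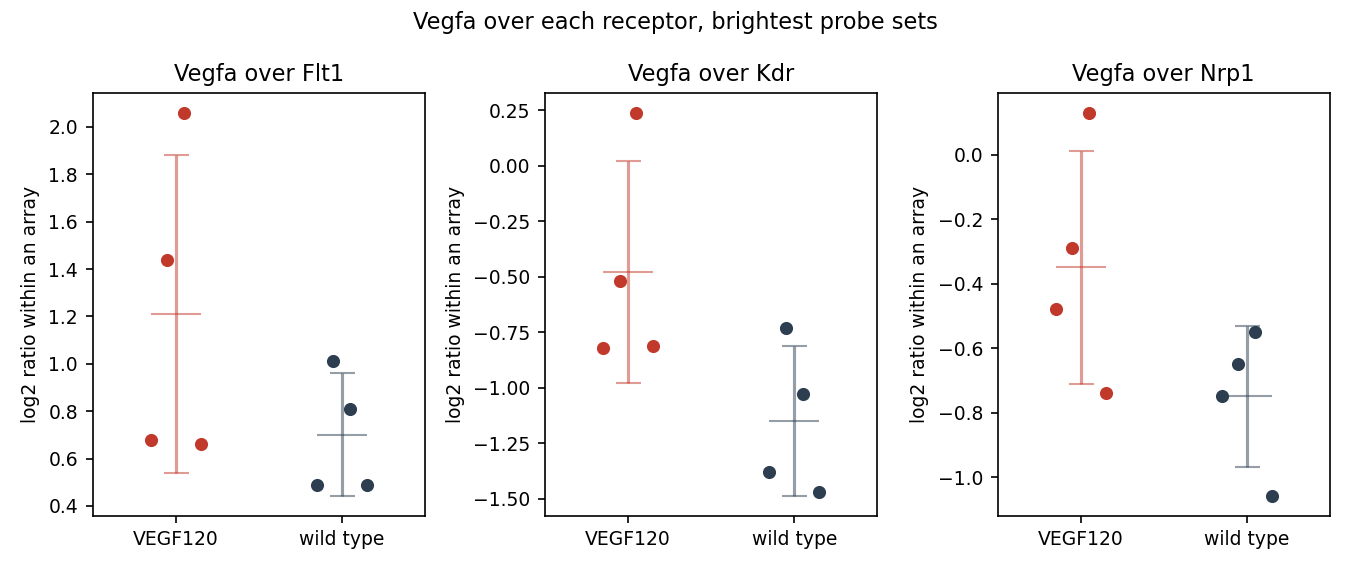
Log2 ratio within an array (y axis) of Vegfa 1420909_at to Flt1 1451756_at, Kdr 1449379_at and Nrp1 1448943_at, for 4 VEGF120 arrays (left, red) and 4 wild type arrays (right, dark), with the mean ± SD as a bar. The VEGF120 mean is higher in each panel, by 0.51, 0.68 and 0.41, and the arrays overlap in all 3.

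Other genes of the pathway could be described only where the files give a probe set a gene name, which holds for 251 of the 330 probe sets of the authors' deposited table. Of 90 entries in 6 lists (other VEGF ligands and receptors, receptor signalling, tip cell genes, semaphorins and plexins, heparan sulfate genes and regulators of Vegfa) 0 were named, and so were 0 markers of endothelium, erythroid cells, macrophages, pericytes, surface ectoderm and forebrain neuroepithelium. These are not analysed here. Among the head mesenchyme markers, the homeobox genes Prrx1, Six2 and Alx1 were named, all from the list that the study selected on these arrays. Their log2 differences ran from 0.70 (Six2) to 1.05 (Alx1), each with an adjusted p of 0.459 in limma, and the Six2 arrays ran from 8.15 to 8.54 in VEGF120 and from 7.49 to 8.09 in wild type (log2). The part of these cells in the Vegfa values was not tested.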

How the data were processed

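Total RNA of microdissected forebrain was labelled and hybridised to Affymetrix Mouse 430 2.0 arrays, 4 VEGF120 and 4 wild type by the labels. The authors' deposited intensity values are MAS5 signals, and the submitters' processing notes name Affymetrix Expression Console without a version. The table has no detection calls. The authors' deposited table of selected probe sets, with an unsigned fold (ratio) made from PLIER summaries per the file headers, was used for gene names and membership; its 12 columns of unmatched arrays were not used. The names of the 10 probe sets came with the choice of members.

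Signals were taken as log2(value + 16). The 64 controls and probe sets below the 40th percentile of the mean were left out. Genotypes were compared with limma 3.58.1 (R 4.3.3, intensity trend), Benjamini-Hochberg adjusted over all probe sets at 0.05, and the fit was tested on simulated data. Within-array ratios used exact permutation in scipy 1.17.1. Correlations used exact permutation by a separate enumeration of all orders of the arrays. Members, lists and tests were chosen with earlier results of these data known. The naming rule takes all members, the 3 list genes of smallest p, and the 3 named genes most like the brightest probe set of each gene. Alternatives changed the added value, scaling, filter, variance model, array weights, replicate block, test and arrays.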

Additional observations from a re-analysis of the deposited data

Results flagged for a closer look

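Among 32 groups of 4 arrays examined (the 10 probe sets, 3 ligand to receptor ratios and 3 array measures in each genotype), a single array stood apart from its 3 companions; about 1.6 such cases arise by chance. Flt1 1419300_at read 6.10 (log2) on wild type replicate 1 and 6.5 to 6.56 on the other wild type arrays.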

How the results depend on the processing

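The correlations, the ligand to receptor ratios and the counts at an unadjusted p, with their alternatives, were added after seeing the data. Under 19 alternatives 0 probe sets passed adjustment, except 1, not among the 10, when VEGF120 replicate 1 was dropped (0 to 1 with single arrays dropped). Dropping single arrays left 1639 (wild type replicate 3) to 3249 probe sets below 0.05 before adjustment, dropping both arrays numbered 4 left 1601, and fewer arrays were fitted there. Of 188 differences of the 10 probe sets under alternatives, 170 kept direction and side of the threshold and 18 turned, all of receptor probe sets, whose differences over all 8 arrays ran from −0.22 to 0.08. Flt1 1454037_a_at was at −0.0422 after quantile normalization and −0.0406 after median centring, Nrp1 1448944_at at −0.0654 and −0.0822, and Nrp1 1457198_at at 0.0569 without both arrays numbered 4. With 1 array left out, Flt1 1419300_at ranged from −0.205 to 0.189, Flt1 1451756_at from −0.357 to 0.058, Flt1 1454037_a_at from −0.0355 to 0.202, Nrp1 1448943_at from −0.203 to 0.121 and Nrp1 1448944_at from −0.111 to 0.231. The correlation of Kdr with Flt1 1451756_at ranged from 0.88 to 0.96, and with Nrp1 1418084_at from 0.78 to 0.90 and 0.79 without both arrays numbered 4. The cause of these shifts was not tested. Changing only the filter, intensity trend, replicate block or test leaves the difference of a probe set as it was, so no direction could turn there. Of 143 within-array ratio differences under alternatives, 39 were tested and 0 passed, and the rest, with 1 array left out, have no test and moved by less than the SD; 10 of the 143 had the other sign. The labels do not say whether the replicate numbers pair arrays. Deviations of same-numbered arrays correlated over 0.1 in 1 of 4 pairs, and 2 of 8 arrays correlated best with their own number. So few values cannot settle whether arrays are paired. Under the replicate block 0 probe sets passed adjustment (2365 were below 0.05 before adjustment), Kdr had a limma p of 0.0491 (adjusted 0.569) and Nrp1 1418084_at of 0.0218 (adjusted 0.562). The 60th percentile filter left out Flt1 1419300_at and 1454037_a_at. Alternatives for the gene lists were not run, since their VEGF members have no names here.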

Other observations

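Among the 97 probe sets above the filter with a gene name, all from the list the study selected on these arrays, those most like Vegfa 1420909_at over the 8 arrays were the head mesenchyme genes Alx1 and Prrx1, each at an r of 0.85, and Pdk1, a kinase that restrains pyruvate use in mitochondria, at 0.83. Of all 27021 other probe sets tested, 405 had an r above 0.8 with it. The genes most like Kdr were Igsf11, an adhesion molecule of the immunoglobulin family, at 0.88, the orphan receptor Gprc5b at 0.82 and Mgmt, a DNA repair enzyme, at 0.81, with 420 of all other probe sets above 0.8. The same 3 genes led for Flt1 1451756_at, at 0.79 (Mgmt), 0.78 (Gprc5b) and 0.76 (Igsf11), and for Nrp1 1448943_at, at 0.62 (Igsf11), 0.61 (Mgmt) and 0.57 (Gprc5b). The study chose these genes for a difference between genotypes, and the 8 arrays are shared by all of these values, so they are given as descriptions only.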
